A study of Mus musculus with 6 samples.

Results

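The genes described here encode the mGluR6 signalling complex of ON bipolar cells, the interneurons that respond to an increase in light. The members were 10 listed genes (Grm6, Trpm1, Gnao1, Gpr179, Nyx, Rgs7, Rgs11, Lrit3, Gng13 and Pcp2) among the 52636 genes of the count table, chosen by name and not by a measured value, and all 10 had counts. They were followed across the 5 cell types of the deposited annotation, within interneurons, and between genotypes. Retinas of C57BL/6J male mice aged 12 months, 3 of the Dram2 wt/wt and 3 of the Dram2 ko/ko genotype, were profiled by droplet single-cell RNA sequencing, which counts unique molecular identifiers (UMIs) near the 3′ end of each transcript. The ko/ko mice carried a constitutive CRISPR/Cas9 deletion of Dram2 exon 4, the wt/wt mice carried none, and no group was treated. Replicate 3 of each genotype formed batch 1, and replicates 1 and 2 formed batch 2. The labels do not tie the replicates to separate animals, so p-values measure the spread between these 6 samples.

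In darkness, glutamate released by photoreceptors activates the receptor mGluR6 (Grm6) on the dendrites of ON bipolar cells. The receptor acts through the G protein Go, with the alpha subunit Gnao1 and the gamma subunit Gng13, to close the cation channel TRPM1 (Trpm1), and light reverses this by lowering glutamate. Rgs7 and Rgs11 accelerate the inactivation of Go, and Gpr179 anchors them at the dendritic tips. Nyctalopin (Nyx) and Lrit3 are leucine-rich-repeat proteins needed for TRPM1 to reach the synapse, and Pcp2 binds Go alpha subunits. Inherited loss of Grm6, Trpm1, Gpr179, Nyx or Lrit3 causes congenital stationary night blindness.

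The members lie on 7 chromosomes of the mouse genome GRCm38 (gene spans from GENCODE M21). Grm6 spans chr11:50850685-50866208 and Gpr179 chr11:97332109-97352077. Trpm1 spans chr7:64153835-64269775, and Nyx lies on chromosome X at chrX:13466110-13489313. Gnao1 spans chr8:93809966-93969388 and Pcp2 chr8:3623371-3625545. Gng13 spans chr17:25717171-25719406 and Rgs11 chr17:26202951-26211324. Rgs7 spans chr1:175059087-175492500 and Lrit3 chr3:129787881-129804030. Pcp2, Gng13 and Rgs11 each overlap a protein-coding gene of the opposite strand (Pet100, Chtf18 and Arhgdig), and Grm6 and Gnao1 an antisense RNA. Reads cannot be told apart there unless the counting used strand, which is not given in the sources used here. Trpm1 (Gm44719 and Mir211) and Rgs7 (5730408A14Rik) also overlap genes of their own strand, which strand would not separate. In glia Arhgdig had 5 UMIs against 127 for Rgs11, and in interneurons Chtf18 had 106 against 15050 for Gng13 and Pet100 401 against 12474 for Pcp2.

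The 250 bases before the RefSeq start (GRCm38.p6, gene strand, 5′ to 3′) are shown for Gpr179, Trpm1 and Grm6, which had the largest differences among the 6 members that passed the filter within interneurons, and for Lrit3, the member whose counts lay mostly outside interneurons. None of these 4 stretches overlaps an annotated exon. Capitals mark TAATCC or its reverse complement GGATTA, the core sequence bound by the retinal homeodomain factors Otx2 and Crx.
Grm6, chr11:50850435-50850684, plus strand: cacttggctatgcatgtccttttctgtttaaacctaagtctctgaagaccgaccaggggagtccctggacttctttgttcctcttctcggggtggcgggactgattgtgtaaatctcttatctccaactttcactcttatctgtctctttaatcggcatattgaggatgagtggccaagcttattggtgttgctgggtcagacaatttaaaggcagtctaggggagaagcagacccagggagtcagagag
Trpm1, chr7:64153585-64153834, plus strand: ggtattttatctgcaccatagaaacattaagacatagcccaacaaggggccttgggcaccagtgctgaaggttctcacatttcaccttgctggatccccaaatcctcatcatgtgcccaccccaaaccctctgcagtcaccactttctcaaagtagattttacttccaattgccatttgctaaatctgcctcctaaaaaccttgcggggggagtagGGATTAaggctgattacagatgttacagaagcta
Gpr179, chr11:97352357-97352606, minus strand: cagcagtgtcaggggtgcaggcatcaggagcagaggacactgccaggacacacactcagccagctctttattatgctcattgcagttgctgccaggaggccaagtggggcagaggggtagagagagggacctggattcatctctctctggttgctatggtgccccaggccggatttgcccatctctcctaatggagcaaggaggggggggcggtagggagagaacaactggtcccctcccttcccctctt
Lrit3, chr3:129804137-129804386, minus strand: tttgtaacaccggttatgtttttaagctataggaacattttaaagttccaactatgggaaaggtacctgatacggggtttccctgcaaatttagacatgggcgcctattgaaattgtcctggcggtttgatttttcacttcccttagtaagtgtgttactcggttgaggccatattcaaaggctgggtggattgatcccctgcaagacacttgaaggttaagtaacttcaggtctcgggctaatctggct
The 6 letters were searched on both strands in the 250 bases before each of 32851 RefSeq starts and occurred in 6.25% of them. Of the 9 members with a RefSeq start in the table used, Trpm1 alone held them, at base -34 counted from its start, and the Rgs11 sequence was not analysed here. The match is a description of the letters in these windows.

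Depth per retina was 3463728 to 6563762 UMIs, and the cells with a type comprised 2083 interneurons, 42359 photoreceptors, 942 glia, 116 RPE cells and 246 mesenchymal cells. Interneurons had a median of 1844 UMIs per cell, against 428 in photoreceptors. Their mean share of mitochondrial UMIs was 4.73% and 3.96% in wt/wt and ko/ko replicate 3 (batch 1), against 0.874% to 1.48% in batch 2. The part of this in differences between the batches was not tested. The library of ko/ko replicate 1 stood apart: 41 genes with at least 5 UMIs in each other retina had none in it, against 1 to 5 such genes in each other retina. Gad1, a marker of amacrine cells, had 164 UMIs in wt/wt replicate 3, 123 in ko/ko replicate 3, 6 in ko/ko replicate 1 and 0 in the other 3. Every pair of retinas differed by more than sampling noise in the interneuron counts, the least between wt/wt replicates 1 and 2 with a chi-square per degree of freedom of 1.18. Dram2 was detected in both genotypes, at 42.7 ± 10.2 and 44.8 ± 8.77 CPM in wt/wt and ko/ko interneurons (SD, n = 3), which does not check the labels because its 3′ end lies outside the deletion. Cell barcodes shared between libraries could not be counted, because the table names cells by serial identifiers.

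All members but Lrit3 (9 of 10) had their highest level in interneurons in all 6 retinas, a pattern shown by 7.41% of the 15672 genes with at least 60 UMIs. Levels are given as CPM, that is, as UMI counts of a gene scaled to a fixed total of UMIs in the summed cells. The types were themselves clustered from these counts, and their order is therefore given with no test. In bulk sums such as these, fewer expressing cells and less RNA per cell cannot be told apart.

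The receptor gene Grm6 stood at 275, 289 and 278 CPM in interneurons of wt/wt replicates 1 to 3 and at 456, 309 and 331 CPM in those of ko/ko replicates 1 to 3. Its mean of 323 ± 68.4 (SD, n = 6) was 20.1 times that of the next type, mesenchymal cells, and 87.7% of its UMIs in typed cells came from interneurons. Glia held 6 Grm6 UMIs in all and RPE cells none, and the ranges of mesenchymal cells, photoreceptors and glia overlapped.

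The channel gene Trpm1 stood at 778, 846 and 420 CPM in wt/wt interneurons and at 671, 1047 and 567 CPM in ko/ko interneurons, with both batch 1 retinas lowest. Its next type was the RPE, a pigmented epithelium in which Trpm1 is also known to be transcribed, at 37.4 to 179 CPM from 1 to 4 UMIs per retina. The interneuron mean was 7.83 times the RPE mean, the ranges did not overlap, and the RPE range in turn lay above that of glia.

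Of the G protein genes, Gng13 stood at 3898 ± 912 CPM (SD, n = 6) in interneurons, 43.7 times the photoreceptor mean. It ranged from 3126 to 4027 CPM in 5 retinas and reached 5648 CPM in ko/ko replicate 1. Gnao1, which encodes a G protein subunit found in many neurons, was less restricted, with 467 ± 47.8 CPM in interneurons and 67.0 to 158 CPM in glia, a ratio of means of 4.24. Pcp2, the modulator of Go, had 3490 ± 1020 CPM in interneurons, 29.1 times the mean of mesenchymal cells. That comparison rested on 1 retina, since mesenchymal cells of ko/ko replicate 3 reached 449 CPM of Pcp2 and 257 CPM of Gng13 and those of the other 5 retinas 12.8 to 96.1 and 12.3 to 99.3.

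The members that turn the signal off split into different patterns. Rgs7 was 21.8 times higher in interneurons than in photoreceptors (76.6 ± 24.9 against 3.52 ± 0.861 CPM, SD, n = 6) and had 3 UMIs in all glia. Rgs11 was only 1.80 times higher in interneurons than in glia. It stood at 154, 123, 120, 179, 155 and 113 CPM in interneurons (wt/wt replicates 1 to 3, then ko/ko) and at 64.9, 87.0, 92.7, 67.0, 68.8 and 88.8 CPM in glia, and these ranges did not overlap. Their anchor Gpr179 had 320 ± 48.1 CPM in interneurons and 26.8 to 73.6 CPM in glia, 6.17 times lower on average, with photoreceptors at 1.73 to 5.35 CPM. Within glia the counts of Rgs11 and Gpr179 stood beside 6 UMIs of Grm6, whereas in interneurons Grm6 had 1316 UMIs beside 549 of Rgs11.

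Of the leucine-rich-repeat members, Nyx was the most restricted of the 10 by the ratio of means, at 70.6 times the photoreceptor level, from 200 UMIs in interneurons, 18 in photoreceptors, 1 in glia and none in mesenchymal and RPE cells. It stood at 57.0 to 99.6 CPM in the interneurons of batch 2 and at 17.8 and 32.8 CPM in those of batch 1. Lrit3 was the one member whose mean was highest in photoreceptors, at 14.4 ± 10.6 CPM against 5.12 ± 4.38 CPM in interneurons (SD, n = 6). The ranges overlapped and photoreceptors were higher in 5 of 6 retinas. Photoreceptors, by far the most numerous cells, held 291 of its 310 UMIs in typed cells and interneurons 13, and LRIT3 is known to be expressed by photoreceptors. Lrit3 levels in photoreceptors fell into separate ranges that did not follow genotype, at 23.6, 25.2 and 23.1 CPM in wt/wt replicates 1 and 2 and ko/ko replicate 2, and at 4.19, 5.88 and 4.28 CPM in wt/wt replicate 3, ko/ko replicate 1 and ko/ko replicate 3. The 3 retinas with the higher Lrit3 levels were the same 3 that had no Gad1 UMI. Whether all libraries were counted with 1 annotation is not given in the sources used here and was not tested. The exact Poisson 95% intervals, which cover counting error only, reached down to 18.4 CPM in the former and up to 9.41 CPM in the latter.

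**Figure D1:**
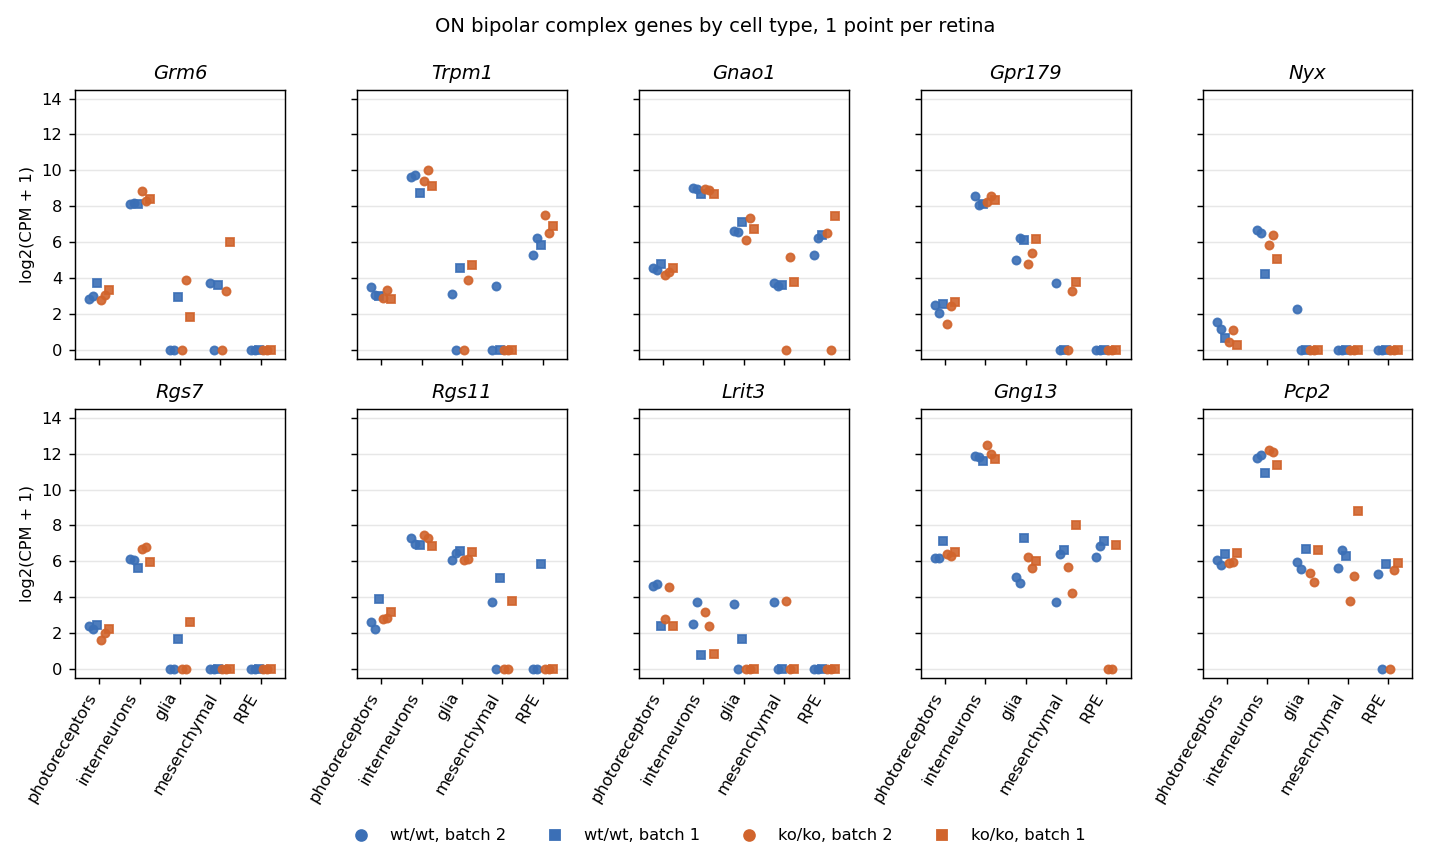
Level of each member (log2 of CPM + 1, y axis) in the 5 cell types (x axis), with 1 point per retina, wt/wt in blue, ko/ko in orange, and squares for batch 1. Interneurons are the highest type in every retina for all members but Lrit3, with Rgs11, Gpr179 and Gnao1 next in glia and Trpm1 next in the RPE.

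**Figure D2:**
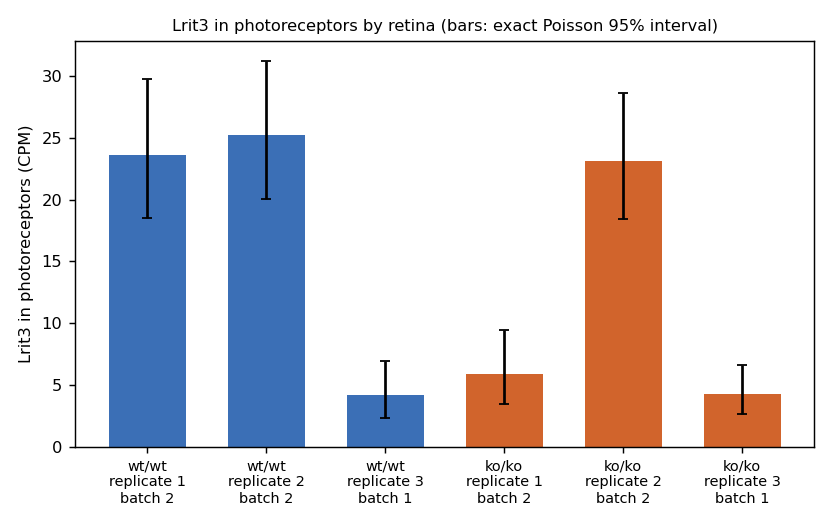
Lrit3 in photoreceptors (CPM, y axis) in each of the 6 retinas, wt/wt in blue and ko/ko in orange, with exact Poisson 95% intervals. Bars stand at 23.1 to 25.2 CPM in 3 retinas and at 4.19 to 5.88 CPM in the other 3.

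At an equal depth of 500 UMIs per cell, Grm6 was seen in 14.1% of 1999 interneurons and 0.342% of 16670 photoreceptors, a cell type that should lack it. The share was 22.9% against 0.312% for Trpm1, 14.4% against 0.168% for Gpr179 and 61.9% against 3.74% for Gng13. Without thinning, the shares of Grm6 were 31.5% and 0.404%. In the 855 glia deep enough, Rgs11 was seen in 3.98% and Gpr179 in 2.92%, above the photoreceptor shares of 0.282% and 0.168%, whereas the glial share of Grm6 was 0.234%. An average of 1.90 of the 10 members was seen per interneuron, against 0.0985 per photoreceptor and 0.228 per glial cell.

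Interneurons comprise bipolar, amacrine and horizontal cells, so the members were next compared within them. Prkca (protein kinase C alpha) and Sebox mark rod bipolar cells, which are ON cells, Grik1 marks OFF bipolar cells, whose glutamate receptors are of another kind, and Gad1 marks GABAergic amacrine cells. Of 2083 interneurons, 362 had a UMI of Prkca or Sebox and none of the other pair, 445 had Grik1 or Gad1 alone, 50 had both kinds and 1226 had none of the 4. The other genes of the OFF cone bipolar list (Vsx1, Tacr3, Neto1 and Grik3, without Grik1, which the class rule uses) had 51.0 CPM in the Prkca or Sebox class, 75.8 CPM in the Grik1 or Gad1 class and 316 CPM in cells with none of the 4 genes on average. They therefore did not mark the Grik1 or Gad1 class as OFF cells, and the classes are called by their rule. Prkca was not exclusive to interneurons, with 270 to 445 CPM in photoreceptors. At 500 UMIs per cell it was seen in 13.5% of photoreceptors and 10.2% of interneurons (16.3% and 18.1% without thinning), so at equal depth a Prkca UMI was no more frequent in interneurons than in photoreceptors, and cells called by it alone may hold background. Sebox was seen in 0.648% and 4.45%. Because Gad1 was nearly limited to batch 1, the Grik1 or Gad1 class of batch 2 was chosen almost wholly by Grik1.

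Of the 10 members, 6 passed the filter on low counts and each of the 6 was higher in cells with Prkca or Sebox than in cells with Grik1 or Gad1, where 8.02% of the 2044 genes tested were higher and 8.61% lower (edgeR quasi-likelihood test with the retina as a block, Benjamini-Hochberg adjusted p under 0.05). Grm6 and Gpr179 had 3 to 17 and 2 to 24 UMIs per retina in the Grik1 or Gad1 class and passed through the class where they were high, so the count is a description. The median log2 difference was 2.73 over the 6 and 1.94 over all 10 members with no filter, beside 0.01 and -0.01 over all genes. Nyx, Rgs7, Rgs11 and Lrit3 did not pass the filter. With Sebox alone as the class rule, added after the data were seen because Prkca is also high in photoreceptors, 8 members were tested and 8 were higher, where 13.7% of 1530 genes were higher. Rgs7 and Rgs11, with 2 to 11 and 1 to 27 UMIs per retina in the Grik1 or Gad1 class, also entered there through the class where they were high, so this count too is a description. Each of the 10 members except Lrit3 was higher in the Prkca or Sebox class in 6 of 6 retinas. For 8 members (all but Nyx and Lrit3) every retina of this class lay above every retina of the other, which held for 0.817% of the 15672 genes with at least 60 UMIs.

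Gpr179 had a log2 difference of 3.56 (standard error 0.27), given with no p because of how it passed the filter. It stood at 845, 458 and 349 CPM in wt/wt cells with Prkca or Sebox and at 544, 765 and 377 CPM in ko/ko ones, against 19.5 to 78.2 CPM in the Grik1 or Gad1 class. Trpm1 differed by 3.27 (standard error 0.19, adjusted p = 3.55e-11 by edgeR). Its levels were 1932, 1771, 637, 1767, 2336 and 891 CPM (wt/wt replicates 1 to 3, then ko/ko) against 75.2 to 205 CPM, and the batch 1 retinas were lowest. Grm6, likewise with no p, differed by 2.84 (standard error 0.19), from 287, 334, 295, 725, 443 and 334 CPM against 33.4 to 120 CPM.

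Pcp2 differed by 2.63 (standard error 0.18, adjusted p = 2.68e-10 by edgeR), with 9264 to 15678 CPM in batch 2 and 3204 and 5031 CPM in batch 1, against 926 to 2041 CPM in the Grik1 or Gad1 class. Of the 6 members that passed the filter, the G protein genes had the smallest differences. Gng13 differed by 1.98 (standard error 0.17, adjusted p = 6.39e-09 by edgeR) and remained abundant in the Grik1 or Gad1 class, at 928 to 1984 CPM. Gnao1 differed by 1.84 (standard error 0.20, adjusted p = 4.65e-07 by edgeR), at 464 to 860 CPM against 90.2 to 228 CPM. With no filter on low counts, where 415 of 22717 genes were called higher, Rgs7 differed by 1.91 and Rgs11 by 1.46. Nyx differed by 1.57 and Lrit3 by 1.25 (from 3 UMIs against 1). All of these had low counts in the Grik1 or Gad1 class, so the values are given with no p.

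Other markers moved with this split. The cone list had 433 to 1692 CPM in cells with Prkca or Sebox and 4092 to 8312 CPM in cells with Grik1 or Gad1, while the rod list was at 7605 to 11555 and 8717 to 15541 CPM. The horizontal cell list was at 386 to 966 and 150 to 356 CPM. The amacrine list, which includes Gad1, was higher on average in the Prkca or Sebox class than in the Grik1 or Gad1 class (1126 against 521 CPM). It had 2064 and 2072 CPM in batch 1 and 0 to 1139 CPM in batch 2 in the former, and 1062 and 1725 CPM against 11.1 to 165 CPM in the latter. The ganglion cell list had 1320 and 659 CPM in batch 1 and 0 to 161 CPM in batch 2 in the Prkca or Sebox class, and 0 to 176 CPM in the Grik1 or Gad1 class. The glia list was at 295 to 1243 and 430 to 1424 CPM, the RPE list at 20.3 to 113 and 37.7 to 91.2 CPM, and the mesenchymal list at 11.6 to 49.9 and 8.38 to 55.6 CPM. In the same batch 1 cells, 31.4% and 24.1% showed none of the 10 members at 1000 UMIs per cell, against 4.35% to 18.9% in batch 2. The part of these cells in the member levels was not tested. Of the 8 members that passed the filter within each batch, 8 were called higher within batch 2, where 9.37% of 1772 genes were higher, and 6 within batch 1, where 2.47% of 5944 genes were, with a median log2 difference of 2.72 and 1.75. Grm6, Gpr179, Rgs7 and Rgs11 were again among these 8 through the class where they were high, so the counts support nothing beyond their values.

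**Figure D3:**
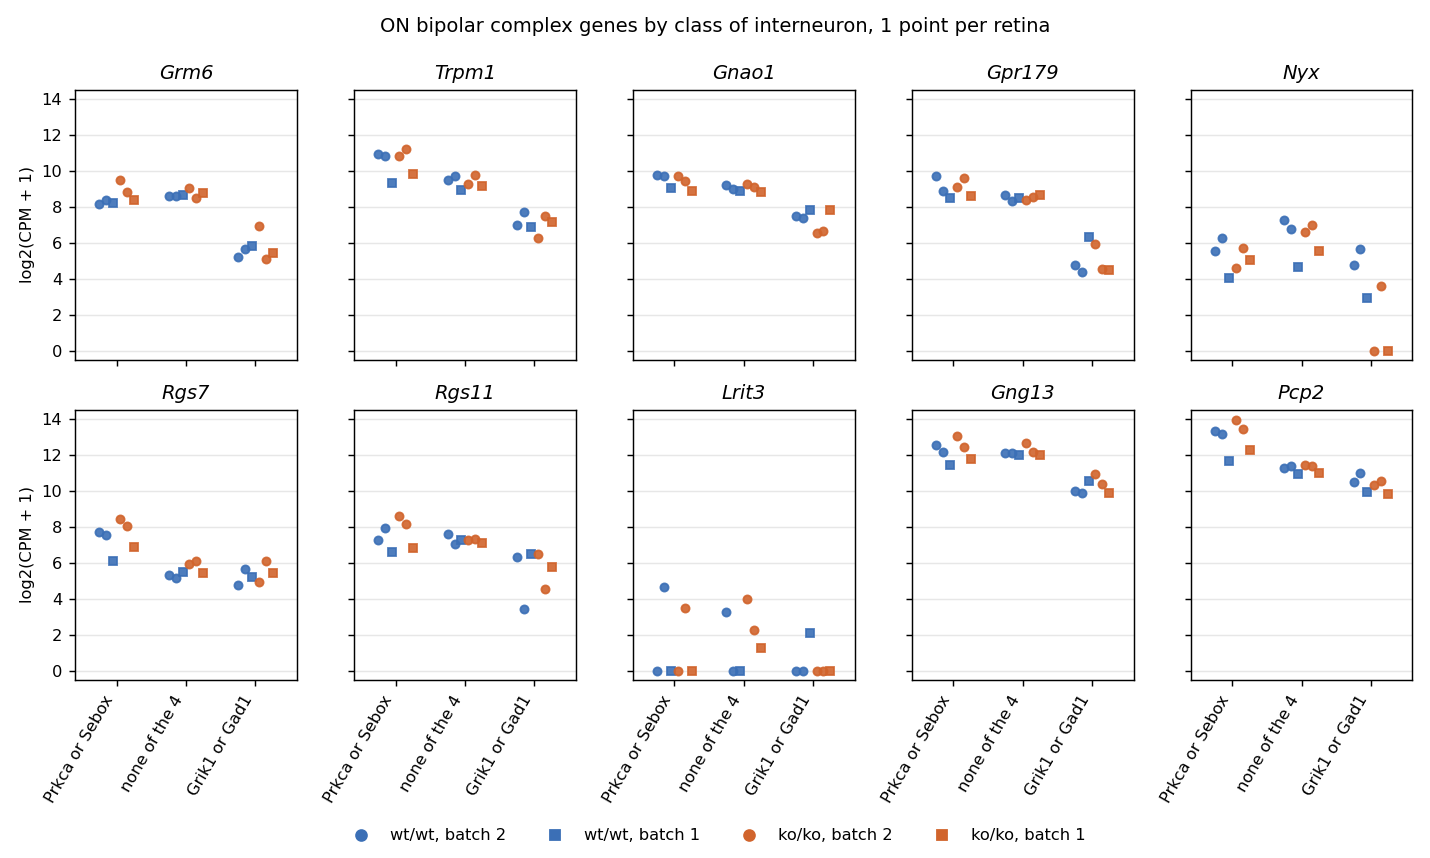
Level of each member (log2 of CPM + 1, y axis) in interneurons with Prkca or Sebox, with none of the 4 class genes, and with Grik1 or Gad1 (x axis), with 1 point per retina, wt/wt in blue, ko/ko in orange, and squares for batch 1. Between the first pair of classes the ranges of all members but Pcp2 overlap, and 8 members are separate between the outer classes.

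ON cone bipolar cells are not marked by any of the 4 class genes. The Prkca or Sebox class was also compared with the 1226 interneurons that had none (a comparison added after the data were seen). Here the members divided. Of 9 tested, 5 were higher in cells with Prkca or Sebox and 1 was lower, where 4.58% of 4739 genes were higher and 4.56% lower. Rgs7 passed the filter through the class where it was high, and Nyx had few counts in the class where it was low. The counts are therefore a description. The cells with Prkca or Sebox were deeper, with a median of 2216 UMIs against 1744. Other marker lists moved with this comparison too. The OFF cone bipolar list without Grik1 had 15.1 to 76.7 CPM in cells with Prkca or Sebox and 238 to 357 CPM in cells with none. Means were 389 against 62.0 CPM for the ganglion cell list, 1126 against 650 CPM for the amacrine list and 603 against 446 CPM for the horizontal cell list. The glia list had 687 against 495 CPM and the cone list 743 against 1717 CPM. Their part in the member differences was not tested.

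Pcp2 was 1.75 higher on the log2 scale (standard error 0.14, adjusted p = 3.66e-11 by edgeR), from 9076 ± 4469 against 2449 ± 347 CPM (SD, n = 6). Rgs7 was 1.72 higher (standard error 0.23), from 197 ± 97.8 against 48.2 ± 13.1 CPM, and higher in 6 of 6 retinas. It is given with no p because it passed the filter through the class where it was high. The other RGS member, Rgs11, differed by 0.16 with a 95% interval of -0.24 to 0.57. Trpm1 was 1.10 higher, Gpr179 0.49 and Gnao1 0.38 (adjusted p = 5.58e-08, 0.0239 and 0.0262 by edgeR), in 6, 4 and 6 of 6 retinas.

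Grm6 and Gng13 did not differ beyond their error between these classes. Grm6 had a log2 difference of -0.12 (95% interval -0.39 to 0.15) and Gng13 one of 0.08 (-0.14 to 0.29). Nyx was lower in cells with Prkca or Sebox by -0.91 (standard error 0.28, adjusted p = 0.0340 by edgeR), and in 6 of 6 retinas. Its levels there were 45.3, 74.3, 15.3, 22.7, 50.3 and 31.9 CPM, against 154, 106, 24.0, 96.2, 123 and 45.8 CPM in cells with none of the 4 genes. Nyx rested on 30 UMIs in the former class and 155 in the latter, so its call is a description.

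**Figure D4:**
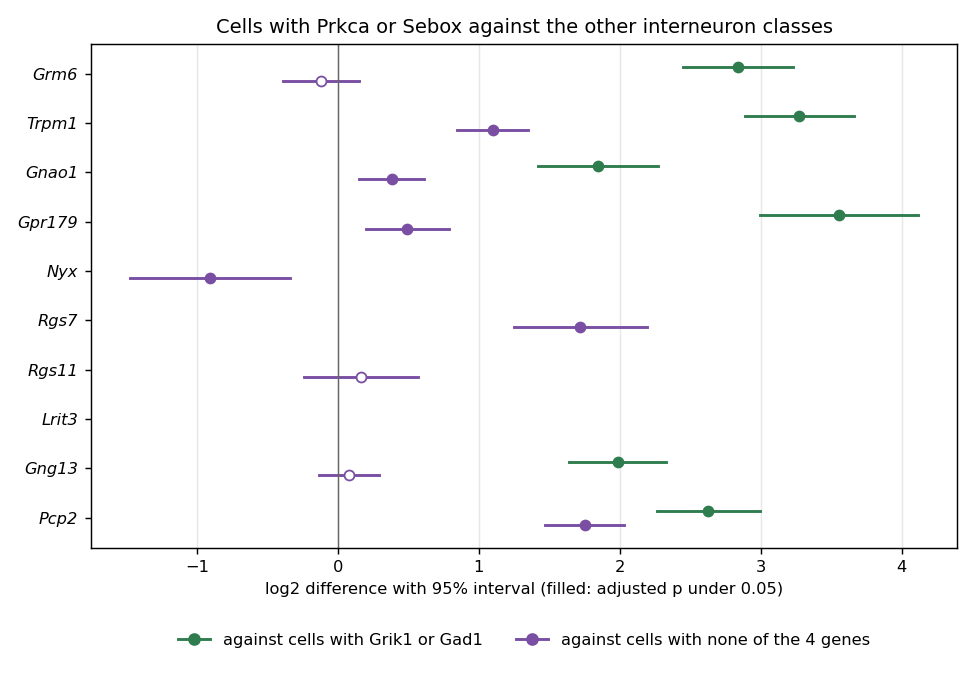
Log2 difference (x axis, with 95% interval) of each member between interneurons with Prkca or Sebox and those with Grik1 or Gad1 (green) or with none of the 4 genes (purple), with filled points at an adjusted p under 0.05. The green values run from 1.84 to 3.56, and the purple ones from -0.91 for Nyx to 1.75 for Pcp2, with Grm6, Rgs11 and Gng13 at intervals that include 0. The filled green points of Grm6 and Gpr179 and the filled purple points of Rgs7 and Nyx are a description. Grm6, Gpr179 and Rgs7 passed the filter through the class where they were high, and Nyx had few counts.

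At 1000 UMIs per cell, cells with Prkca or Sebox showed an average of 3.25 of the 10 members, cells with none of the 4 genes 2.96 and cells with Grik1 or Gad1 1.46. At least 3 members were seen in 62.4%, 63.2% and 15.9% of these cells. The first pair was close with the batches pooled, and single retinas differed. In batch 2 the average number of members was higher with Prkca or Sebox in each of the 4 retinas (3.84 to 4.83 against 3.18 to 3.29). In batch 1 it was lower in both, at 2.34 against 2.70 in wt/wt and 2.71 against 2.77 in ko/ko. The share with at least 3 members was lower with Prkca or Sebox in both batch 1 retinas and in wt/wt replicate 2 (64.9% against 67.7%). In the other batch 2 retinas it was higher (79.4% to 95.7% against 68.7% to 71.1%). Rgs7 was seen in 13.8% of cells with Prkca or Sebox (exact 95% binomial interval 10.3 to 18.0%), in 5.44% (4.13 to 7.0%) of cells with none of the 4 genes and in 3.66% (2.06 to 5.96%) of cells with Grik1 or Gad1. For Nyx the order of the first pair was turned, at 3.53% (1.84 to 6.08%) and 7.67% (6.12 to 9.47%). These intervals cover counting error over cells pooled from all retinas. They leave out the spread between retinas and do not test the classes. Unthinned, the shares were 26.2% and 8.40% for Rgs7 and 7.18% and 11.4% for Nyx. Gng13 was seen in 59.5% of cells with Grik1 or Gad1, where Grm6 was seen in 3.41%.

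The members were also found in the same cells. Interneurons with a Grm6 UMI (657 cells, median 2015 UMIs) were compared with those without (1426 cells, median 1744 UMIs), with Grm6 itself left out (a comparison added after the data were seen). The 8 members that passed the filter were each higher in cells with a Grm6 UMI, with a median log2 difference of 1.29, where 6.81% of 5784 genes were higher and 5.58% lower. Gpr179 (1.82) and Trpm1 (1.80) had the largest differences, followed by Gng13 (1.45), Rgs11 (1.32), Pcp2 (1.26), Nyx (1.07), Rgs7 (0.95) and Gnao1 (0.86), with standard errors of 0.09 to 0.21 and adjusted p of 0.000223 or less by edgeR. Grik1 was lower by -3.37 and Prkca and Sebox higher by 1.61 and 1.94.

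A list of 10 further genes of this synapse (the partners) was examined in the same comparisons. Of the 4 partners tested between cells with Prkca or Sebox and cells with Grik1 or Gad1, 2 were higher and 1 lower, beside 8.02% and 8.61% of all genes. Gnb3, the beta subunit of Go, was higher by 1.09 (standard error 0.16, adjusted p = 1.54e-05 by edgeR) and Gnb5, the partner of RGS proteins, by 0.77 (0.16, adjusted p = 0.000964). Cacna1f, the calcium channel of photoreceptor and bipolar terminals, was lower by -1.01 (0.22, adjusted p = 0.00163), and Cacna2d4 was at -0.27 with an adjusted p of 0.487. By edgeR, Cacna1f lost its call with Sebox alone as the rule (-0.38, adjusted p = 0.274) and within batch 2 (-0.85, adjusted p = 0.0605), and within batch 1 Gnb3 (0.72, adjusted p = 0.149) and Gnb5 (0.65, adjusted p = 0.0673) lost theirs. Between cells with and without a Grm6 UMI, 5 of 8 partners tested were higher and none lower, beside 6.81% and 5.58% of all genes, namely Gnb3 (1.22), Rgs7bp (0.96), Gnb5 (0.70), Lrit1 (0.58) and Cacna2d4 (0.51). With DESeq2, with no filter, or without replicate 3 of either genotype 3 partners were called. With no filter Lrit1 (0.53, adjusted p = 0.109 by edgeR) and Cacna2d4 (0.45, adjusted p = 0.0592 by edgeR) lost their calls. Gnb3 and Rgs7bp were highest in interneurons in 6 of 6 retinas, as were 7.41% of genes, and Gnb5, Rgs9bp, Lrit1, Lrit2, Elfn1 and Cacna1f in none.

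Over 36 sums (4 cell types and the 2 interneuron classes in 6 retinas), the genes whose log2(CPM + 10) followed the mean profile of the members most closely, among those tested in the split, were Isl1 (Pearson r = 0.972), Cacna2d3 (0.972), C130073E24Rik (0.964), Qpct (0.942) and Bhlhe23 (0.936). The sums share libraries, and cell type sets most of the variation, so r is a description. These genes were picked for this likeness, so their levels in the classes are no separate evidence and are not given.

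No member passed the test between ko/ko and wt/wt retinas in interneurons, their classes with Prkca or Sebox and with Grik1 or Gad1, photoreceptors or glia (edgeR, genotype as the only term). Mesenchymal cells, RPE cells and interneurons with none of the 4 genes were not tested. In interneurons 0% of 7698 genes were called, and 0 of the 9 members tested. In cells with Prkca or Sebox 0% of 1893 genes were called (8 members tested), in cells with Grik1 or Gad1 0% of 2339 (4 members), in photoreceptors 0% of 13053 (9 members) and in glia 0% of 4130 (5 members). At an unadjusted p under 0.05 there were 86, 16, 41, 109 and 51 genes, and no member among them. limma-voom and DESeq2 also called 0 genes in each of these. With batch as a covariate in limma-voom, 298 of 7698 genes in interneurons had an unadjusted p under 0.05, among them 4 of the 9 members. In cells with Prkca or Sebox 153 of 1893 genes did, among them 3 of the 8 members. In edgeR with batch, 2 and 1 members did, beside 214 of 7698 and 80 of 1893 genes. These fits also called 0 genes. The paper lists Pcp2 and Sebox among interneuron genes significantly higher in ko/ko than in wt/wt retinas, by limma-voom on sums of the same samples. Here they were not called with that tool, and the reason was not tested. Their values come from the same retinas and are not independent evidence.

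Grm6 in interneurons stood at 281 ± 7.07 CPM in wt/wt and 365 ± 79.4 CPM in ko/ko (SD, n = 3), a log2 difference of 0.38 with a standard error of 0.22 (adjusted p = 1.00 by edgeR). The value rested partly on ko/ko replicate 1, the library that stood apart, and was 0.22 without it. Within batch 2 the ko/ko mean was 1.36 times the wt/wt mean, and within batch 1, with 1 retina each, 1.19 times. Rgs7 had the largest difference, 0.59 (standard error 0.31), from 61.2 ± 11.8 and 91.9 ± 26.6 CPM, with ratios of 1.57 and 1.30 within batches 2 and 1. It was 0.37 without ko/ko replicate 2, 0.39 without wt/wt replicate 3 and 0.88 without ko/ko replicate 3. Pcp2 (0.34), Gng13 (0.34), Trpm1 (0.18), Rgs11 (0.16) and Gpr179 (0.13) lay above 0 and Gnao1 (-0.02) and Nyx (-0.22) below it, and no 95% interval of the 9 members excluded 0. With the replicate number as a block the intervals of Rgs7 (0.54, 0.07 to 1.01, unadjusted p = 0.0258 by edgeR) and Pcp2 (0.36, 0.02 to 0.69, unadjusted p = 0.0382 by edgeR) excluded 0, the adjusted p of each was 0.999, and Nyx was at 0.04. Nyx had no stable direction, at -0.81 without wt/wt replicate 3, -0.65 without ko/ko replicate 2 and 0.22 without wt/wt replicate 1. Without ko/ko replicate 1, Gng13 was at 0.11. Pcp2 was at 0.10 without wt/wt replicate 3 and 0.57 without ko/ko replicate 3. Trpm1 turned to -0.08 without wt/wt replicate 3 and to -0.13 without ko/ko replicate 2, and otherwise reached 0.39 when single retinas were left out. Rgs11 had its lowest value, 0.04, with ko/ko replicate 1 left out and its highest, 0.37, with ko/ko replicate 3 left out. For Gpr179 the lowest was 0.01 (ko/ko replicate 2 left out) and the highest 0.31 (wt/wt replicate 1 left out).

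In cells with Prkca or Sebox the largest member difference was that of Grm6, 0.60 (95% interval -0.09 to 1.29). It came from 306 ± 25.4 CPM in wt/wt and 501 ± 202 CPM in ko/ko (SD, n = 3), and was 0.31 without ko/ko replicate 1. Over all alternatives Grm6 lay between 0.11 and 0.82. The median over the 8 members tested was 0.41, with 7 above 0, and 0.06, with 5 above 0, with Sebox alone as the class rule. Sebox, which helps choose this class, was itself seen in 7.15% of wt/wt and 11.8% of ko/ko interneurons on average. The mix of cells in the class can therefore differ between genotypes, and its part in these values was not tested. Pcp2 was at 7537 ± 3779 and 10614 ± 5343 CPM, a difference of 0.46 (-0.62 to 1.54). It was at 0.09 without ko/ko replicate 1 or without wt/wt replicate 3, and at 0.77 without ko/ko replicate 3. The batch 1 retinas of both genotypes had less Pcp2 than every batch 2 retina. The samples with the same replicate number deviated together here and in interneurons as a whole, although wt/wt replicate 1 correlated more with ko/ko replicate 2 of its batch than with ko/ko replicate 1 (r = 0.283 against 0.224 here and 0.328 against 0.105 in interneurons), so a shared number and a shared batch cannot be told apart. With the replicate number as a block Pcp2 was at 0.49 with a standard error of 0.15, an unadjusted p of 0.00631 and an adjusted p of 0.981 by edgeR, so no call was made. In the same fit Gng13 was at 0.34 (95% interval 0.03 to 0.65, unadjusted p = 0.0354, adjusted p = 0.998 by edgeR), and the intervals of the other 6 members tested included 0.

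In photoreceptors the 9 members tested had log2 differences from -0.64 for Lrit3 to 0.05 for Pcp2, with a median of -0.15 beside -0.01 over all genes. Their direction depended on 1 library, since without wt/wt replicate 3 the median was 0.11 and 5 of the 9 were above 0. The Lrit3 value had a standard error of 0.75 and lay between -1.78 and -0.23 when single retinas were left out. Its ko/ko mean was 0.594 times the wt/wt mean within batch 2 and 1.02 times within batch 1. In glia Rgs11 was at -0.13 (81.5 ± 14.7 and 74.9 ± 12.1 CPM in wt/wt and ko/ko, SD, n = 3) and Gpr179 at -0.20. Gpr179 had no stable direction there, at -0.71 without ko/ko replicate 3 and 0.06 without ko/ko replicate 1, and Rgs11 lay between -0.26 (wt/wt replicate 1 left out) and -0.03 (ko/ko replicate 1 left out).

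Whether the ko/ko difference itself changed between cells with Prkca or Sebox and cells with Grik1 or Gad1 was tested as an interaction, in which 0% of 2867 genes and 0 of 8 members were called. Pcp2 had the one unadjusted p under 0.05 among the members, with an interaction of 0.72 (95% interval 0.12 to 1.33, unadjusted p = 0.0208, adjusted p = 0.963 by edgeR), and 132 genes had an unadjusted p under 0.05. The value depended on single libraries. It was 0.44 without wt/wt replicate 3 (unadjusted p = 0.0959 by edgeR) and 0.46 without ko/ko replicate 1 (unadjusted p = 0.141 by edgeR). It was 1.01 without ko/ko replicate 3 and 1.03 without wt/wt replicate 1. Without ko/ko replicate 3, 4 of the 8 members had an unadjusted p under 0.05 by edgeR, beside 171 of 2929 genes, and 0 were called. Sebox, which helps choose the Prkca or Sebox class, was seen in a larger share of ko/ko than of wt/wt interneurons. Its part in the interaction was not tested.

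**Figure D5:**
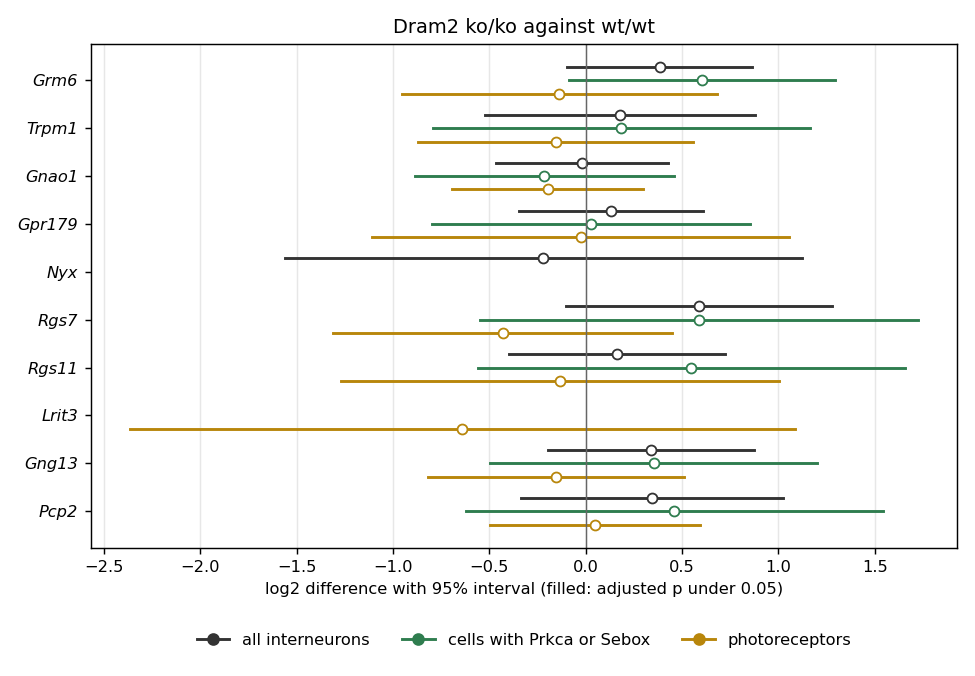
Log2 difference between ko/ko and wt/wt (x axis, with 95% interval, genotype as the only term) of each member tested, in all interneurons (black), cells with Prkca or Sebox (green) and photoreceptors (gold). All points are open, as no adjusted p was under 0.05, and every interval includes 0.

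Counting also the 50 cells with markers of both classes, cells with Prkca or Sebox made up 15.4%, 16.2% and 19.2% of interneurons in wt/wt and 15.0%, 21.01% and 25.0% in ko/ko retinas, and the groups overlapped. Without those 50 cells, as in the class used above, the shares were 13.8%, 15.4% and 15.1% in wt/wt and 15.0%, 18.5% and 22.8% in ko/ko retinas (exact permutation p = 0.3). With them, the difference of 3.42 percentage points gave p = 0.4 in a two-sided exact permutation test, whose smallest possible p is 0.1 with 3 retinas against 3. At 1000 UMIs per cell the shares, counted with them, were 12.4%, 14.0% and 11.9% in wt/wt and 14.8%, 16.3% and 16.6% in ko/ko retinas (exact permutation p = 0.1). The difference was 2.22 percentage points within batch 2 and 5.82 within batch 1 at full depth.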

How the data were processed

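The 3 wt/wt and 3 ko/ko retina samples were sequenced with the 10x Genomics 3′ v2 kit. The authors counted UMIs with Cell Ranger (version 3.1.0 per the submitters' processing notes) on GRCm38 from exonic reads and deposited raw counts per gene and cell, not normalized, for 46375 cells. The cell types are the authors' clusters, of which 629 cells carry none, and doublet removal is not stated. A second deposited table gives the sample of each cell. Of 52636 gene identifiers, 52403 were matched to a symbol. No per-sample column was left unused (0).

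For each retina, UMIs were added up over the cells of a type or class. CPM are scaled to the total of each sum. Sums were tested with edgeR 4.0.16 (glmQLFTest, TMM factors, filterByExpr) with Benjamini-Hochberg adjustment over all genes tested, and with limma 3.58.1 and DESeq2 1.42.0 as alternatives (the study's own tool was limma-voom). The 4 class genes were left out of the split they define, and the retina was its block. Intervals of log2 differences use the t distribution with the degrees of freedom of each fit, and those of shares are exact binomial ones at 95%. Standard errors given for edgeR are the size of the log2 difference divided by the square root of the F statistic of its test. They and their intervals therefore restate that test. Equal depth means that each cell was thinned at random to a fixed number of UMIs and shallower cells were left out. UMI shares and Poisson intervals cover counting error only. Tests were run first on simulated data. Alternatives used a stricter set of cells (500 UMIs or more, mitochondrial UMIs no more than 10%), left out the 5% of cells with most UMIs, the filter or single retinas, or used RLE factors, batch, the replicate block or other class rules. Python 3.11.15 and R 4.3.3 were used.

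The genes named are the 10 members, the 4 class genes, Dram2, the partners and the 5 genes most like the members. The members and lists were chosen with earlier results of these data known. Same-numbered replicates correlated over 0.1 in their deviations from the genotype means in interneurons (0.105, 0.340 and 0.577) and in cells with Prkca or Sebox (0.224, 0.283 and 0.593). In cells with Grik1 or Gad1, photoreceptors and glia replicates 2 and 3 did so (0.315 to 0.537) and replicate 1 did not (-0.00251, -0.0667 and -0.0741). The results of 2 of the marker lists, both of bipolar cells, are not reported here, so the lists given are not the full set.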

Additional observations from a re-analysis of the deposited data

Results flagged for a closer look

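In the cases below, both ko/ko retinas of batch 2 lay on one side of both wt/wt retinas. The ko/ko retina of batch 1 lay on the other side of its wt/wt retina. Members with more than 3 UMIs in each retina were searched, in interneurons, their classes with Prkca or Sebox and with Grik1 or Gad1, photoreceptors and glia. The share of all genes with this pattern was not counted, so the cases are a description. The difference between the batches was not tested, and batch 1 has 1 retina per genotype. In interneurons, Nyx in ko/ko differed from wt/wt by -26.0 CPM in batch 2 and 15.0 CPM in batch 1, and Rgs11 by 28.8 and -7.35 CPM. Gng13 showed this in 3 cell groups: it differed by 690 CPM in batch 2 and -562 CPM in batch 1 in cells with Grik1 or Gad1, by 8.89 and -51.0 CPM in photoreceptors, and by 30.4 and -95.4 CPM in glia. In photoreceptors, Rgs11 differed by 1.59 and -5.56 CPM and Lrit3 by -9.92 and 0.0866 CPM.

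The 629 cells with no deposited type, which no comparison used, held 46 UMIs of Gng13, 36 of Pcp2, 9 of Gnao1, 7 of Lrit3 and 5 of Rgs11, each above the 3 counts that a count of 0 allows, whereas Gpr179, Nyx and Rgs7 had 0.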

How the results depend on the processing

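The count of 9 members highest in interneurons in every retina was the same in every alternative run. In the split by Prkca or Sebox against Grik1 or Gad1, the members called stayed at 6 to 8 in every alternative. Each was higher except against cells with none of the 4 genes. There Nyx was called lower at -0.91, the log2 difference of Grm6 turned to -0.12 and that of Gng13 lost its call at 0.08. The median over the members tested was 2.73, and 4.72 against cells with Gad1 alone. The fit with Gad1 alone left out wt/wt replicates 1 and 2 and ko/ko replicate 2, which had no Gad1 UMI, and tested 981 genes. The 340 genes called in the main split became 853 with no filter on low counts, 154 against cells with Gad1 alone and 218 with no retina block. They became 289 to 365 when single retinas were left out. The 717 genes called by a Grm6 UMI became 340 with DESeq2 and 1216 with no filter, and 424 to 753 when single retinas were left out (451 without wt/wt replicate 3 and 424 without ko/ko replicate 3), with 8 members called throughout.

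No member was called between genotypes in any alternative. With no filter 1 gene each was called in interneurons, cells with Grik1 or Gad1 and photoreceptors, and 4 in the interaction, and the interaction called 0 to 3 genes when single retinas were left out (2 without wt/wt replicate 1, 3 without wt/wt replicate 3 and 1 without ko/ko replicate 2). With the replicate number as a block, 0 genes were called in each genotype comparison, so it changed no call. A log2 difference of a member that was never called changed sign in 15 of 135 values in interneurons, 8 of 136 in cells with Prkca or Sebox, 7 of 60 with Grik1 or Gad1, 13 of 132 in photoreceptors, 5 of 72 in glia and 10 of 88 in the interaction. The share of interneurons with Prkca or Sebox differed by 1.09 to 6.09 percentage points when single retinas were left out. Low counts limit Nyx, Rgs7, Rgs11 and Lrit3, which failed the filter in the split. The cause of these changes was not tested.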

Other observations

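Interneurons with a Sebox UMI made up 8.85%, 6.22% and 6.39% of interneurons in wt/wt and 11.9%, 12.7% and 10.8% in ko/ko retinas, without overlap (exact permutation p = 0.1, the smallest that 3 against 3 retinas can give). Sebox was at 99.9 ± 25.2 and 192 ± 28.9 CPM in wt/wt and ko/ko interneurons (SD, n = 3). It stands on the study's own list of interneuron genes that differ between the genotypes. The share with Grik1 or Gad1, without cells that also had Prkca or Sebox, was 23.9 ± 2.18% in wt/wt retinas and 20.7 ± 3.97% in ko/ko retinas (exact permutation p = 0.3), and with those cells 26.0 ± 1.61% and 22.3 ± 2.80% (exact permutation p = 0.2).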
